A study of Mus musculus with 8 samples.

Results

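This is an account of open chromatin at 9 mouse transcription factor genes of mesenchymal cells in bone marrow stromal cells: Prrx1, Prrx2, Twist1, Twist2, Foxc2, Tbx15, Snai1, Zeb1 and Zeb2. They were taken as a named list, 9 of the 22367 protein-coding genes of the annotation. The rule for the list uses no measured value, but the list was drawn up with earlier results of these data known. The assay was ATAC-seq, which marks accessible DNA by letting the transposase Tn5 insert sequencing adapters into it. Of the deposited peaks, 234 of 164103 lay in one of these genes or within 50 kb of it.

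All 7 libraries, titled ATAC1 to ATAC7, came from stromal cells of the bone marrow of C57BL/6J mice, wild type and 6 weeks old, and none of the animals carried a labelled treatment or transgene. In the study, the sort kept cells with PDGFR-α and Sca-1 on their surface and left out those with Ter119, CD45 or CD31, and further surface markers divided them into subpopulations. No label ties a title to a subpopulation, and the titles serve here as names only. Each title had 1 library, which leaves no replicate and allows no test between libraries, and 1 Input library served as the control for all of them.

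The 9 factors belong to families that direct mesenchymal tissue. Prrx1 and Prrx2 are paired-type homeodomain factors of limb and craniofacial mesenchyme. Twist1 and Twist2 are basic helix-loop-helix factors that pair with E proteins on E-boxes and hold back osteoblast maturation. Foxc2 is a forkhead factor of mesenchyme and vessels, and Tbx15 is a T-box factor of skeletal and fat precursors. Snai1, Zeb1 and Zeb2 are zinc finger repressors that bind E-boxes and turn off epithelial genes such as Cdh1 when epithelial cells take on a mesenchymal state, the epithelial-mesenchymal transition.

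In the tables, a peak has the number of library reads and of Input reads in the wider region from which it was cut, and a fold over Input, which is the library reads scaled and divided by the Input reads. A start-site peak here is a peak whose centre lay within 1000 bases of an annotated transcript start of the gene, and where several did, the one ranked best by the peak caller gives the values. Intervals are exact 95% intervals of counting error only, and reads are not known to be free of duplicates. A gene without a peak is one where none passed the authors' limits, which is not proof of closed chromatin. Each library is a pool of cells, so fewer cells with open DNA and less open DNA in each cell cannot be told apart.

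The libraries differed in the number of peaks, from 15188 in ATAC7 to 32280 in ATAC2, and the median fold of a peak lay between 5.77 in ATAC3 and 10.9 in ATAC5. ATAC2, ATAC5 and ATAC6 had 28969 or more peaks each, and ATAC3, ATAC4 and ATAC7 had at most 16027. Values below that follow this order of the libraries move with the length of the peak list, and the part of this length in the results was not tested. For some values the count in lists of equal length is also given. Input reads in the wider region had a median of 21 to 34 a peak.

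The stromal label was checked at the start sites of 12 marker genes. Pdgfra, the receptor used in the sort, had a start-site peak in 5 libraries, all but ATAC1 and ATAC3, and Col1a1, the main collagen of bone, had one in 6, all but ATAC4. Neither Ly6a, which encodes Sca-1, nor Lepr, Col3a1, Dcn, Thy1 and Eng had a start-site peak in any library. The number of these 12 markers with one ran from 1 in ATAC3 and ATAC4 to 6 in ATAC2. Over all protein-coding genes the share with one was 43.5% in ATAC3, 43.7% in ATAC4 and 50.2% in ATAC2. Of 10 haematopoietic markers, 3 (ATAC2 and ATAC7) to 7 (ATAC5) had one, with Sfpi1, the myeloid factor PU.1 listed here under its older name, and Ikzf1 in all 7 libraries and Ptprc, which encodes CD45, in ATAC1, ATAC3, ATAC5 and ATAC7, while Lyz2 and Gata1 had none. Of 10 endothelial markers, 0 (ATAC3 and ATAC7) to 5 (ATAC5) had one. The share of all protein-coding genes was 50.2% in ATAC2, 43.5% in ATAC3, 52.7% in ATAC5 and 42.0% in ATAC7. Of the lowest and highest counts of the haematopoietic and endothelial lists, only the 7 in ATAC5 lay above the share of its library. Vwf had one in 5 libraries, all but ATAC3 and ATAC7, Erg and Egfl7 in ATAC5 and ATAC6, and Kdr in ATAC5. Pecam1, which encodes the CD31 that the sort left out, had one in ATAC5. Cdh5, Tek, Emcn, Sox17 and Tie1 had none in any library. The part of these cell types in the values below was not tested.

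Start-site peaks of the 9 genes fell into distinct patterns. Tbx15, Snai1, Zeb1 and Zeb2 had one in all 7 libraries, Twist1 in 6, Foxc2 in 2, Twist2 in 1, and Prrx1 and Prrx2 in none. In ATAC5, 7 of the 9 genes had a start-site peak, and in each of the other 6 libraries 5 did. The share of all protein-coding genes with one was, from ATAC1 to ATAC7 in order, 49.0%, 50.2%, 43.5%, 43.7%, 52.7%, 51.5% and 42.0%. The 5 genes are 55.6% of the 9, close to these shares, and the 7 genes in ATAC5 are 77.8%, against 52.7%, a difference of 2 genes with weak peaks (Twist2 and Foxc2). The number of factors with an open start site is therefore not read as a result about them, and the patterns of the single genes carry the account. Over all protein-coding genes, 43.3% had a start-site peak in no library and 36.8% in all 7.

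**Figure D1:**
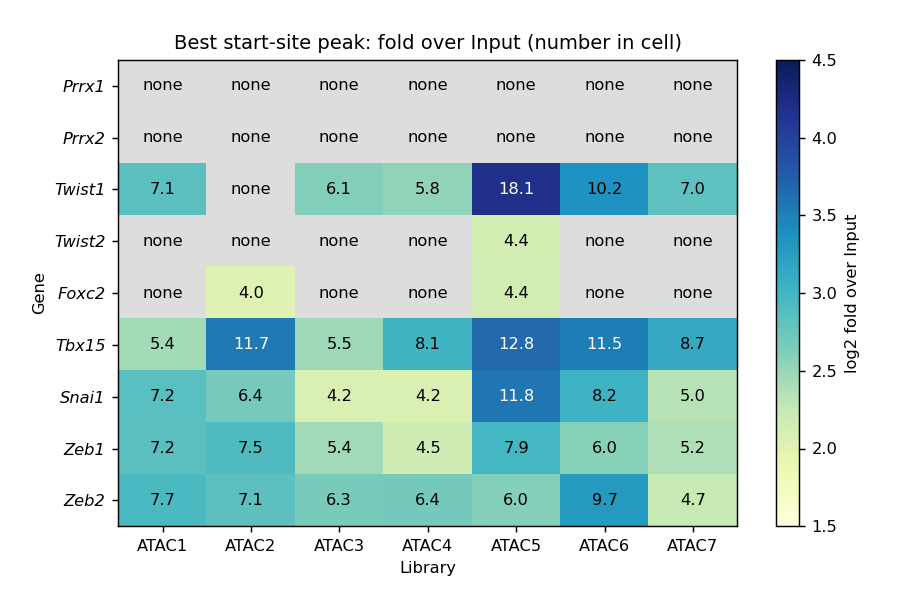
Fold over Input of the best start-site peak of each of the 9 genes (rows) in each of the 7 libraries (columns), with colour on a log2 scale and grey cells where no peak was called. Prrx1 and Prrx2 are grey throughout, Twist2 has a value in ATAC5 only, and the highest value is that of Twist1 in ATAC5, 18.1.

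The sequences shown next are the accessible stretches at the genes whose pattern differed between libraries. They are read from the reference genome (mm9, plus strand), with E-boxes, CANNTG in letters, in capitals, since Twist, Snail and Zeb factors bind such words. Bases of untranslated exons are left out. For Prrx1, which lies on the minus strand, they are the intronic stretch chr1:165242151-165242278 and the stretch of coding exon chr1:165242524-165242617. For Twist2 they are the bases upstream of the start, chr1:93697826-93698037, and an intronic region, chr1:93720106-93720256.
Prrx1 intron: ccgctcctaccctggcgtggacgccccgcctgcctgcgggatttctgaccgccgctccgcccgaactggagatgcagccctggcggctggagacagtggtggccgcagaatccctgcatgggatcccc
Prrx1 coding exon: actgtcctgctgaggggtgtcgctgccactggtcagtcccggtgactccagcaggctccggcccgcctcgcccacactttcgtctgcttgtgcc
Twist2 start site: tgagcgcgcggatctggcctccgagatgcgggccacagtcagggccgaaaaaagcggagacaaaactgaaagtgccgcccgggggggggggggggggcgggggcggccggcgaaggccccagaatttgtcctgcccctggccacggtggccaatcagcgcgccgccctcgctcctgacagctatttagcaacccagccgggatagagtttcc
Twist2 intron: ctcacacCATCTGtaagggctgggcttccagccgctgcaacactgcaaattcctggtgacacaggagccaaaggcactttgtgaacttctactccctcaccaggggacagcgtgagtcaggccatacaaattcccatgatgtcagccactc
Both Prrx1 stretches and the Twist2 start site were rich in G and C, at 70.3%, 67.0% and 67.9%, and held no E-box, and the Twist2 intron, at 54.3%, held 1.

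For Twist1 the stretch is chr12:34642302-34642535, the bases before the transcription start. For Foxc2 they are chr8:123639965-123640070, the bases before the start, and chr8:123637310-123637436, a region further upstream that was called in more libraries than the start site itself.
Twist1 start site: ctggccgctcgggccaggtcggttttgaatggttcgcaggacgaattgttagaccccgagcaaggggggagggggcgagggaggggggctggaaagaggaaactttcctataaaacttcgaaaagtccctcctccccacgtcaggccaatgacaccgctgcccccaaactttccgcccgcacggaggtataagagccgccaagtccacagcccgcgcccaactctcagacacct
Foxc2 start site: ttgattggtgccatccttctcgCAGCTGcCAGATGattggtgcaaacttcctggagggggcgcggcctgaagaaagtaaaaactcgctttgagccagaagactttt
Foxc2 upstream region: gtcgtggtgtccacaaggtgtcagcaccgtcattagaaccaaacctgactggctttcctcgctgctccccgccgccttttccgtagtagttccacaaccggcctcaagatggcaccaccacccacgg
The Foxc2 start site held 2 E-boxes, CAGCTG and CAGATG, separated by a single base, and the other stretches of this group held none.

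Prrx1 (chr1:165175247-165243841, minus strand) was without a start-site peak in all 7 libraries, and peaks anywhere in its window of the gene and 50 kb on each side were found in ATAC2, ATAC5 and ATAC6 alone. The peak nearest to an annotated start was centred 1229 bases away in ATAC2, 1234 bases in ATAC5 and 1585 bases in ATAC6. In ATAC1, ATAC3, ATAC4 and ATAC7 the nearest peak of the whole chromosome lay at least 90006 bases away. The 3 libraries thus had open DNA within the first part of the gene, beyond the limit of 1000 bases, where the other 4 had no peak.

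The intronic Prrx1 region shown above had 68 library reads against 25 Input reads in ATAC5, with a fold of 4.66 (2.91 to 7.69), and 79 against 25 in ATAC6, with a fold of 4.97 (3.14 to 8.14). The region in the coding exon had 71 reads against 15 in ATAC2, with a fold of 7.47 (4.24 to 14.06), and 65 against 15 in ATAC5, with a fold of 7.42 (4.19 to 14.01). At each of the regions, the intervals of the 2 libraries overlapped. A region in the downstream flank, chr1:165139270-165139560, was called in ATAC5 with 124 reads against 15 and in ATAC2 with 54 against 9. The remaining 3 regions of the window were each called in 1 library, among them an intronic one at chr1:165203421-165203517 in ATAC2, with 42 reads against 8.

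Prrx2 (chr2:30690492-30736761, plus strand) had no start-site peak either, and unlike Prrx1 no peak lay within the gene in any library. The nearest peak was centred 6584 to 6747 bases away in all 7 libraries, at the start of the neighbouring gene Asb6, a member of a ubiquitin ligase adaptor family. The window held 37 peaks, most of them at the start sites of Asb6, Mettl11a, 1700001O22Rik and Ptges, which encodes a prostaglandin E synthase. The start of Mettl11a was the most open place of the window, with 399 to 1420 reads and folds of 7.29 to 32.5 over the 7 libraries. Open chromatin upstream of Prrx2 in every library thus stood beside a gene without a single peak inside it.

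Twist1 (chr12:34642536-34644682, plus strand) was open at its start in 6 libraries but not in ATAC2, the library with the longest peak list. Reads against Input reads were 448 against 77 in ATAC1, 422 against 70 in ATAC3, 185 against 36 in ATAC4, 1133 against 107 in ATAC5, 590 against 91 in ATAC6 and 471 against 74 in ATAC7. In ATAC2 the nearest peak was 83491 bases away, so the whole window was without a peak there. Among the 1097 protein-coding genes with a start-site peak in exactly 6 libraries, ATAC2 was the missing one in 97 (8.84%), and ATAC7 in 401 (36.6%). The other 96 genes with the pattern of Twist1 are 0.429% of protein-coding genes, and none of the related factors, partners or targets listed below was among them.

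The fold of Twist1 was 7.15 (5.60 to 9.23) in ATAC1, 6.08 (4.71 to 7.95) in ATAC3, 5.82 (4.06 to 8.57) in ATAC4, 18.1 (14.9 to 22.3) in ATAC5, 10.2 (8.17 to 12.9) in ATAC6 and 7.03 (5.49 to 9.11) in ATAC7. The interval of ATAC5 lay above all the others, and the other 4 neighbouring pairs in the order overlapped. Since ATAC5 had high folds at most genes, each fold was also divided by the median best start-site fold of protein-coding genes in the same library, which is called the relative fold below. The relative fold of Twist1 was 1.47 in ATAC5, 1.19 in ATAC7, 1.03 in ATAC3, 0.921 in ATAC4, 0.855 in ATAC6 and 0.828 in ATAC1. Twist1 in ATAC5 thus stood above 74.3% of the genes with a start-site peak in that library, the highest place it took. The peak of ATAC6 was centred 462 bases upstream of the start, and those of the other 5 libraries within 204 bases of it.

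Twist2 (chr1:93698038-93744605, plus strand) was open at its start in ATAC5 alone, with 110 reads against 43 and a fold of 4.38 (3.05 to 6.39). Its relative fold was 0.354, higher than only 3.70% of genes with a start-site peak in that library. The intronic region shown above, 22143 bases into the gene, was called in ATAC2 with 61 reads against 9, in ATAC5 with 61 against 9 and in ATAC6 with 79 against 10. Its folds of 10.7 (5.29 to 24.5), 11.6 (5.73 to 26.6) and 12.4 (6.42 to 26.9) overlapped widely. In ATAC1, ATAC3, ATAC4 and ATAC7 the nearest peak to the start was 247191 to 260907 bases away. Of the listed related factors, Foxf1a, a forkhead factor of visceral mesenchyme, and Meox2, a homeodomain factor of somites, also had a start-site peak in ATAC5 alone, a pattern of 299 other protein-coding genes (1.34%).

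Prrx1 and Twist2 thus shared ATAC2, ATAC5 and ATAC6 as the libraries with any peak in their windows, a pattern that 512 further protein-coding genes (2.29%) had. These are the 3 libraries with the longest peak lists. With only the 15188 best-ranked peaks of each library, Prrx1 kept 1 peak, in ATAC6, and Twist2 kept none, while Twist1 kept peaks in the same 6 libraries. Among the 690 protein-coding genes with a start-site peak in exactly 3 libraries, these 3 were the most frequent combination, with 413 genes (59.9%).

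Foxc2 (chr8:123640071-123642792, plus strand) had a start-site peak in ATAC2, with 51 reads against 20 and a fold of 4.03 (2.36 to 7.14), and in ATAC5, with 126 against 49 and a fold of 4.40 (3.14 to 6.26). Both were weak next to other genes, with relative folds of 0.461 and 0.356, and with the 15188 best-ranked peaks of each library neither Foxc2 nor Twist2 kept a start-site peak. The region 2698 bases upstream was called in 6 libraries, all but ATAC7. There the reads against Input reads were 94 against 17 in ATAC1, 84 against 18 in ATAC2, 54 against 17 in ATAC3, 74 against 17 in ATAC4, 103 against 19 in ATAC5 and 84 against 18 in ATAC6. The folds ran from 3.203 (1.83 to 5.90) in ATAC3 to 9.28 (5.66 to 16.1) in ATAC5, and these intervals overlapped.

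In ATAC7 no peak lay within 329068 bases of the Foxc2 start, so that library had none at the start of the neighbour Mthfsd either, a gene open in the other 6. The flanking forkhead gene Foxf1a was open at its start in ATAC5, with 176 reads and a fold of 3.55. Further peaks downstream had up to 144 reads in ATAC5 and 50 in ATAC6. The start-site pattern of Foxc2 was that of 139 other protein-coding genes (0.621%), with none of the related factors, partners or targets among them. Of the marker lists, Cxcl12, the chemokine gene of stromal cells, shared it.

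**Figure D2:**
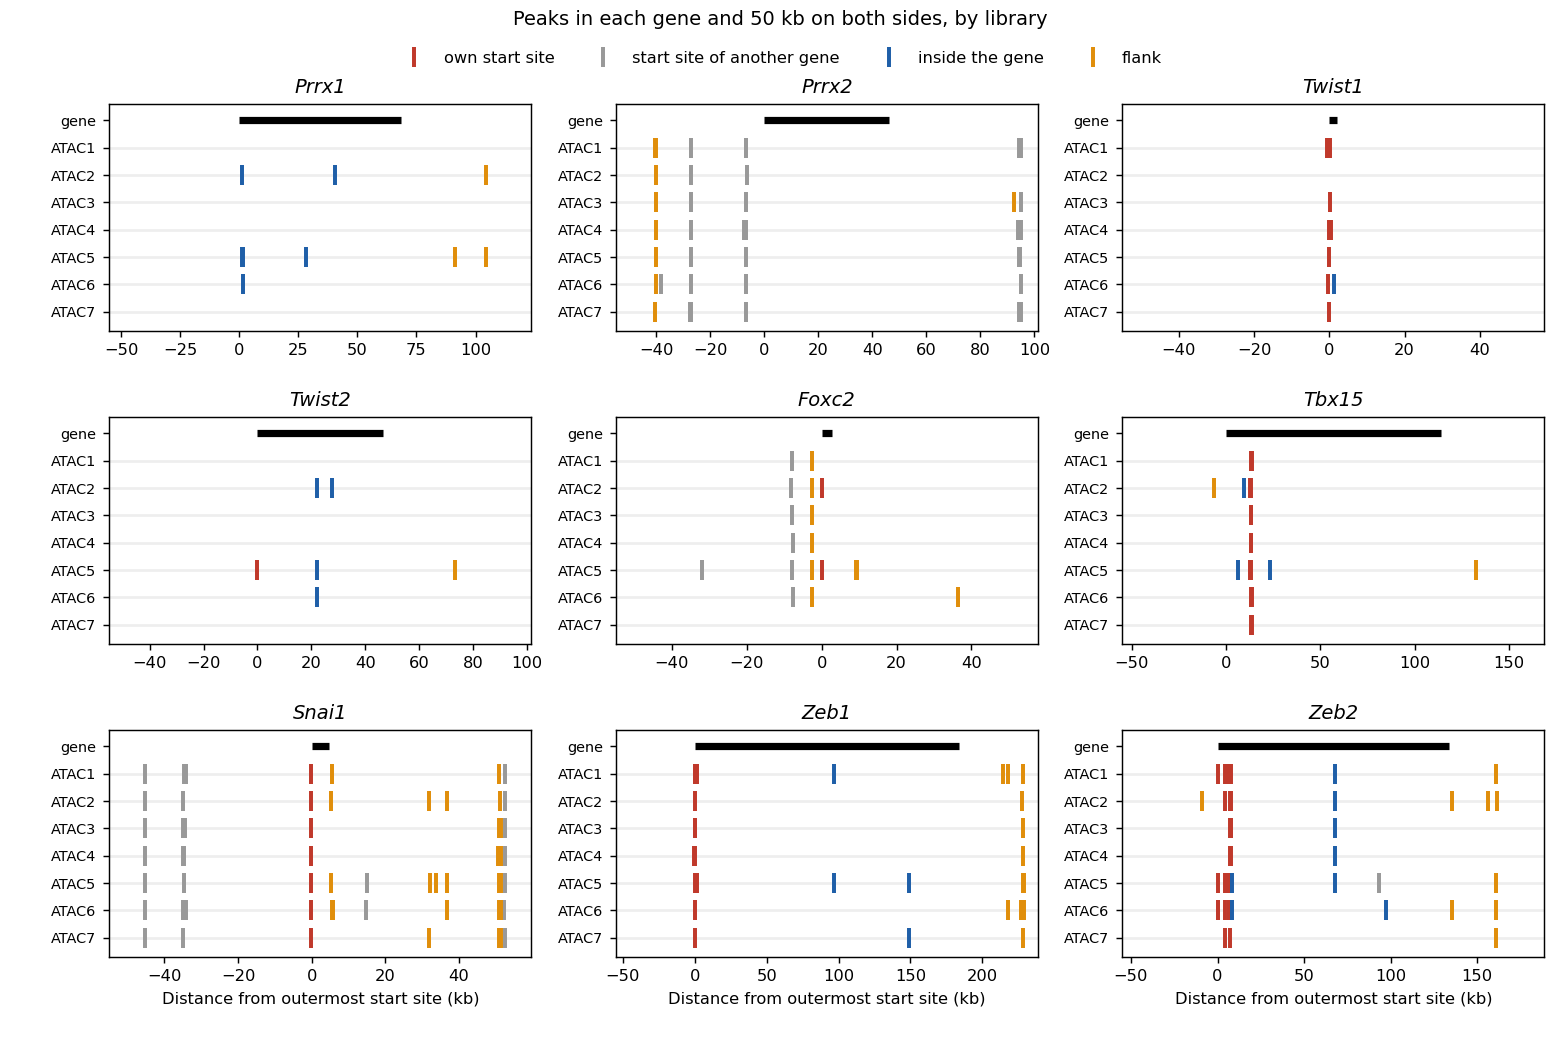
Position of every peak in each gene and 50 kb on both sides, as distance in kb from the outermost start site in the direction of transcription, with 1 row for each library and the gene as a black bar. Ticks are coloured by class (own start site, start site of another gene, inside the gene, flank), and Prrx1 and Twist2 have ticks in ATAC2, ATAC5 and ATAC6 only, while Twist1 has none in ATAC2.

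Tbx15 (chr3:99044304-99158182, plus strand) had its start-site peak in all 7 libraries at an inner start, 13379 bases downstream of the outermost one, where no library had a peak. Reads against Input reads were 167 against 38 in ATAC1, 310 against 42 in ATAC2, 175 against 32 in ATAC3, 93 against 13 in ATAC4, 284 against 38 in ATAC5, 263 against 36 in ATAC6 and 213 against 27 in ATAC7. The fold ran from 5.40 (3.78 to 7.90) in ATAC1 to 12.8 (9.10 to 18.5) in ATAC5, and ATAC2 and ATAC6 came close to the latter, at 11.7 and 11.5. These extremes did not overlap, but all 6 neighbouring pairs in the order did. On the relative scale the order changed: ATAC7 was highest at 1.48, followed by ATAC2 at 1.34 and ATAC4 at 1.28, and ATAC1 stayed lowest at 0.626. Each library had 2 Tbx15 start-site peaks, and the best-ranked one did not lie in the same place in all of them. The other peak had a higher fold than the best-ranked one in ATAC1 (7.37 against 5.40), ATAC2 (14.7 against 11.7), ATAC3 (8.15 against 5.52) and ATAC5 (18.2 against 12.8). It had a lower one in ATAC4 (5.66 against 8.095), ATAC6 (5.04 against 11.5) and ATAC7 (4.59 against 8.71). The order of the libraries thus depends on which peak is read.

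Snai1 (chr2:167363695-167368314, plus strand) was open just upstream of its start, at chr2:167363161-167363662, in all 7 libraries. Reads against Input reads were 370 against 63 in ATAC1, 187 against 46 in ATAC2, 261 against 63 in ATAC3, 210 against 57 in ATAC4, 519 against 75 in ATAC5, 363 against 70 in ATAC6 and 288 against 63 in ATAC7. The fold was lowest in ATAC4 at 4.17 (3.10 to 5.69) and ATAC3 at 4.18 (3.16 to 5.60), and highest in ATAC5 at 11.9 (9.29 to 15.3). Relative folds ran from 0.660 in ATAC4 to 0.957 in ATAC5. In every library Snai1 thus lay under the median of the protein-coding genes with a start-site peak there.

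Zeb1 (chr18:5591858-5775465, plus strand) was open at its start in all 7 libraries, at chr18:5591487-5592375. Its reads against Input reads were 351 against 60 in ATAC1, 219 against 46 in ATAC2, 140 against 26 in ATAC3, 124 against 31 in ATAC4, 294 against 64 in ATAC5, 586 against 154 in ATAC6 and 113 against 24 in ATAC7. The folds, from 4.53 (3.04 to 6.95) in ATAC4 to 7.87 (5.99 to 10.5) in ATAC5, had intervals that overlapped. In every library Zeb1 also lay under the median of the protein-coding genes with a start-site peak there. Its relative folds ran from 0.502 in ATAC6 to 0.921 in ATAC3. The predicted gene Gm10125 starts close by, and peaks there cannot be assigned to one of them.

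Zeb2 (chr2:44839154-44972915, minus strand) has 10 annotated start positions, and the best peak was not at the same one in all libraries. In ATAC2, ATAC3, ATAC4, ATAC6 and ATAC7 it lay in chr2:44965646-44966199, while in ATAC1 it lay further into the gene, at chr2:44964791-44965318, and in ATAC5 at the outermost start, at chr2:44972341-44972988. Reads against Input reads were 619 against 99 in ATAC1, 393 against 87 in ATAC2, 214 against 34 in ATAC3, 165 against 29 in ATAC4, 190 against 54 in ATAC5, 457 against 74 in ATAC6 and 129 against 30 in ATAC7. The fold of the best peak was highest in ATAC6 at 9.72 (7.59 to 12.6) and lowest in ATAC7 at 4.75 (3.17 to 7.32). A narrower start region of Zeb2 (chr2:44968442-44968780) had higher folds, 22.9 to 38.3 in 5 libraries, on 1 to 7 Input reads, so that these folds have wide intervals. The fold of Zeb2 therefore depends on which of its start sites is read.

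**Figure D3:**
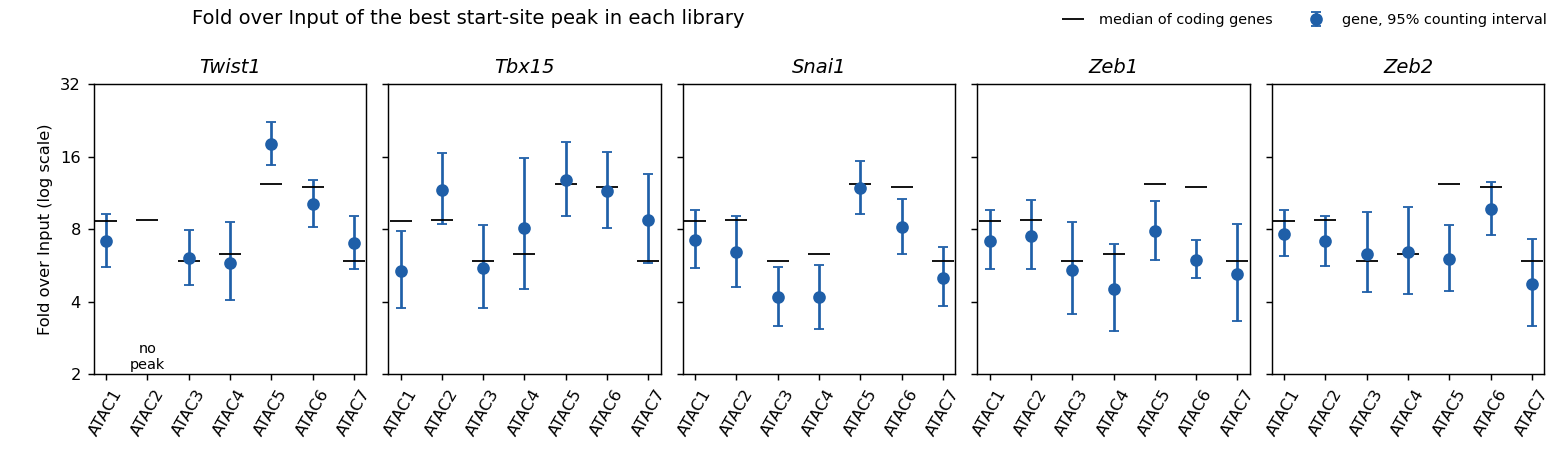
Fold over Input (log axis) of the best start-site peak in each library for the 5 genes with one in at least 6 libraries. Points are the genes with 95% counting intervals and dashes the median best start-site fold of protein-coding genes in that library, and Twist1 in ATAC5 lies above its dash and above its other intervals.

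The spread of these folds over libraries was compared with that of other genes. The highest fold divided by the lowest was 3.12 for Twist1 over 6 libraries, and over 7 libraries 2.84 for Snai1, 2.37 for Tbx15, 2.05 for Zeb2 and 1.74 for Zeb1. Among the 8238 protein-coding genes with a start-site peak in all 7 libraries the median was 2.87, with quartiles of 2.54 and 3.28. After division by the library median, the ratio was 2.36 for Tbx15, 2.21 for Zeb2, 1.84 for Zeb1, 1.77 for Twist1 and 1.45 for Snai1, beside a median of 1.59 and quartiles of 1.44 and 1.84. On the fold scale Tbx15, Zeb2 and Zeb1 thus lay below the lower quartile, while on the relative scale Tbx15 and Zeb2 lay above the upper one, and the change of start site in Zeb2 and of peak in Tbx15 enters these values.

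Per length, the read density of the best peak was compared in ATAC5, where 7 of the genes had one. Snai1 had 872 reads per 1000 bases of the wider region, Twist1 708, Tbx15 454, Foxc2 329, Zeb1 313, Zeb2 251 and Twist2 218. These are densities in 1 library without correction for Input, and the order of Snai1 and Twist1 on this scale is opposite to that of their folds, 11.9 and 18.1. Input reads were 75 in 595 bases at Snai1 and 107 in 1600 bases at Twist1.

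Away from the start sites of any gene, the number of peaks in the 9 windows was 27 in ATAC5, 19 each in ATAC2 and ATAC6, 11 in ATAC1, 7 each in ATAC3 and ATAC7 and 6 in ATAC4. With the 15188 best-ranked peaks of each library the lead of ATAC5, ATAC2 and ATAC6 was gone, with 7 in ATAC5, 3 in ATAC2, 7 in ATAC6, 6 each in ATAC1 and ATAC4 and 7 each in ATAC3 and ATAC7. All peaks away from start sites had a median rank at 65.1% of the list in ATAC2, 65.5% in ATAC5 and 66.9% in ATAC6, so shorter lists lose many of them. No equal-list count is given for all protein-coding genes, so the loss is not read as a result about these windows. In the full lists, at least 1 peak away from start sites was present at 5, 8, 5, 5, 8, 8 and 4 of the 9 genes, from ATAC1 to ATAC7 in order. Over all protein-coding genes the shares with one were, in the same order, 43.7%, 51.2%, 24.7%, 25.1%, 53.7%, 51.2% and 24.4%. The count of genes was above the background share in each library, but the windows of these genes are also longer, with a median of 146568 bases against 115427.

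Per 100 kb of window, and summed over the libraries, the 9 genes had a median of 5.99 such peaks and a mean of 7.02, against 1.98 and 4.83 over protein-coding genes. Snai1 had the densest surroundings, 22.9 peaks per 100 kb, and Twist1 the sparsest, 0.979, with a single peak in an intron in ATAC6. In ATAC1 the mean of the 9 genes, 0.724, lay below that of protein-coding genes, 0.779, and in the other 6 libraries it lay above. Snai1 decided part of this: without it the mean over the libraries was 5.03 instead of 7.02, and the mean of the remaining 8 genes also lay below that of protein-coding genes in ATAC4 (0.305 against 0.338) and ATAC7 (0.227 against 0.325). Measures of their strength pointed in different directions. Their median fold was below that of all peaks away from start sites in 6 of the 7 libraries (8.29 against 10.5 in ATAC2, for example) and above it in ATAC7 (7.72 against 6.94). Their median rank was better in all libraries but ATAC2 and ATAC5 (the best 51.9% of the list against 70.0% in ATAC1, for example), and their median reads were higher in all but the same pair (113 against 86 in ATAC1, and 72 against 84 in ATAC5).

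**Figure D4:**
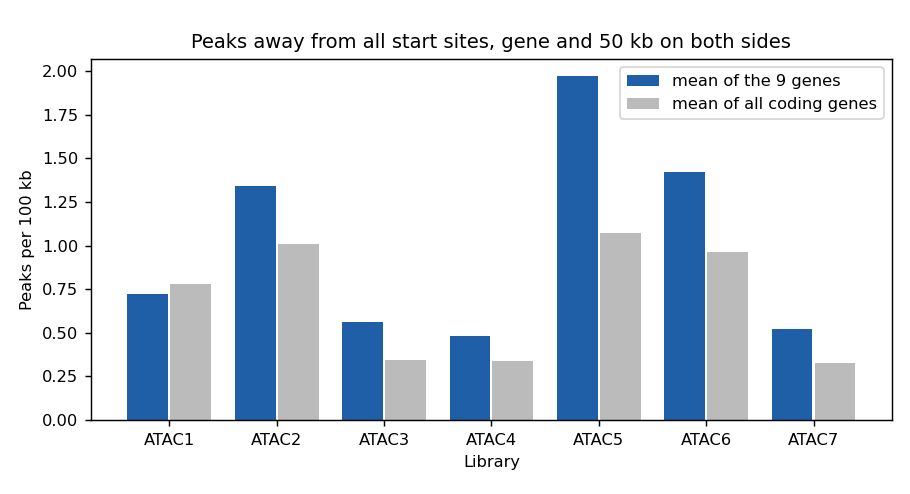
Mean number of peaks away from all start sites per 100 kb of window (gene and 50 kb on both sides) in each library, for the 9 genes (blue bars) and all protein-coding genes (grey bars). Blue bars are higher in all libraries but ATAC1, with Snai1 included, and ATAC5 has the highest, 1.97 against 1.07.

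Merged over libraries, the 234 peaks formed 73 regions, of which 41 lay away from all start sites. Of these, 20 (48.8%) were called in 1 library, where over the genome 50.1% of 30238 such regions were, and 2 (4.88%) in all 7, where 3.91% were. The factors thus had about the common share of library-restricted regions. The 20 regions were divided as 8 in ATAC5, 6 in ATAC2, 4 in ATAC6 and 1 each in ATAC1 and ATAC3.

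A region away from start sites is shown for Snai1 and for Zeb2, since each was called in at least 5 libraries and carries several E-boxes. One lay downstream of Snai1 (chr2:167414237-167415107, its central 300 bases chr2:167414523-167414822 shown), and the other past the 3′ end of Zeb2 (chr2:44811678-44812142, with chr2:44811761-44812060 shown).
Snai1 downstream region: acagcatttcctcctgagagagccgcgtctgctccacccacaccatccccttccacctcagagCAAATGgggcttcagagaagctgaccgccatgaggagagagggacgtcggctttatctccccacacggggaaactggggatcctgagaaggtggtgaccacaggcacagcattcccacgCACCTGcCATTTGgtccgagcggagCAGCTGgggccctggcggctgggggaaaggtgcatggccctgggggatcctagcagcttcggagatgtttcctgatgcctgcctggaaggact
Zeb2 downstream region: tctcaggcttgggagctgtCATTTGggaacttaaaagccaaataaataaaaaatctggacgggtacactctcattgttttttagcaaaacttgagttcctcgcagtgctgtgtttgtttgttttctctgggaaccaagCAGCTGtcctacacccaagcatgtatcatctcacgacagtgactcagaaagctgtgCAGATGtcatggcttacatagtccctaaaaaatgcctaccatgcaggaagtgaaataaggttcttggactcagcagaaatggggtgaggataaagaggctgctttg
The Snai1 stretch held 4 E-boxes, with 1 CACCTG, which is CAGGTG on the other strand, and the Zeb2 stretch held 3, with 1 CAGATG.

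The region downstream of Snai1 lay 50977 bases from its start and was called in all 7 libraries. Its reads ran from 140 in ATAC2 to 623 in ATAC1 and its folds from 4.34 (3.13 to 6.10) in ATAC2 to 15.4 (10.5 to 23.2) in ATAC5. These best peaks lay in different parts of the region, and a second peak of ATAC5, closer to the place of the ATAC2 peak, had a fold of 6.21, so the contrast depends on which peak is read. The predicted gene Gm11475 starts 2223 bases from it. Closer to Snai1, 5184 to 5691 bases past its start, 3 neighbouring regions were called in ATAC1, ATAC2, ATAC5 and ATAC6 together, with the most reads, 258, in ATAC6.

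The region past the end of Zeb2 was called in 5 libraries, with 61 reads against 5 in ATAC1, 220 against 7 in ATAC2, 108 against 5 in ATAC5, 114 against 7 in ATAC6 and 58 against 4 in ATAC7. Its fold was highest in ATAC2, at 49.6 (23.7 to 125), and lowest in ATAC1, at 14.96 (6.08 to 47.8), and these intervals overlapped. An intronic region of Zeb2 (chr2:44904885-44905077) showed another set of libraries, ATAC1 to ATAC5, with folds of 3.47 to 5.85. The 2 regions were thus both absent from 2 libraries, ATAC3 and ATAC4 for the first and ATAC6 and ATAC7 for the second.

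At Zeb1, a region past the 3′ end of the gene (chr18:5819811-5820127) was called in 6 libraries, all but ATAC2. Reads against Input reads were 149 against 16 in ATAC1, 127 against 15 in ATAC3, 125 against 16 in ATAC4, 259 against 31 in ATAC5, 416 against 38 in ATAC6 and 137 against 18 in ATAC7. Folds were 8.40 (5.12 to 14.6) in ATAC7, 8.54 in ATAC3, 8.84 in ATAC4, 11.4 in ATAC1, 14.3 in ATAC5 and 17.2 (12.4 to 24.7) in ATAC6. These were higher than the start-site folds of Zeb1 in all 6 libraries, with intervals that did not overlap in ATAC6, where the start-site fold was 5.99 (5.01 to 7.202), and overlapped in the other 5. Beside it lay a region called in ATAC2 and ATAC6 (chr18:5818930-5819306), with 82 and 92 reads.

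Base composition at the start sites was compared over 1001 bases around the start with the highest CpG ratio of each gene, the observed number of CpG divided by that expected from C and G. Prrx1 had the lowest ratio of the 9, 0.47, under the median of 0.602 over protein-coding genes. The other 8 lay above it: Tbx15 at 0.759, Prrx2 at 0.774, Zeb2 at 0.788, Snai1 at 0.789, Twist2 at 0.801, Twist1 at 0.871, Zeb1 at 0.974 and Foxc2 at 0.993. With protein-coding genes divided into 4 equal groups by this ratio, 60.1% of the group that holds Prrx1 had a start-site peak in no library. In the next group, which holds Prrx2, 13.7% had none, and in the highest group, which holds Twist2 and Foxc2, 74.3% had one in all 7 libraries. Prrx2, Twist2 and Foxc2 thus had fewer libraries with a start-site peak than most genes of like composition.

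E-boxes were searched in 300 bases at the centre of each region, on both strands. The word CANNTG was in 12 of the 18 own start-site regions (66.7%) and in 32 of the 41 regions away from start sites (78.0%), beside 62.6% and 81.0% of all regions of the same class. CAGGTG, the form bound by Snail and Zeb factors, was in 1 of 18 (5.56%) and 9 of 41 (22.0%), beside 18% and 17.7%. CAGATG, a form bound by Twist factors, was in 4 of 18 (22.2%) and 11 of 41 (26.8%), beside 12.2% and 24.8%. Both of these words are also counted under CANNTG. The shares are descriptions of letters, and regions of 1 gene lie side by side. CATATG, the homeodomain core TAATTA and the T-box word AGGTGTGA were in none of these regions, beside 4.17%, 5.98% and 1.26% of all regions away from start sites. The word CCGCCC, bound by Sp factors, was in 12 of 18 start-site regions (66.7%), beside 57.5%. TGTGGT, the core word of Runx factors, was in 14 of 41 regions away from start sites (34.1%), beside 30.7%, and the forkhead word TGTTTAC was in 1 of 41 (2.44%), beside 5.17%.

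In a list of other mesenchymal factors, the 3 libraries with the longest peak lists had the most open start sites. Of 29 related factors, the number with a start-site peak was highest in ATAC5 (19), ATAC6 (17) and ATAC2 (15), followed by ATAC1 (11), ATAC3 and ATAC7 (6 each) and ATAC4 (3). Over all protein-coding genes the share was 52.7% in ATAC5 and 43.7% in ATAC4, as given above, which 19 and 3 of 29 lie above and below. Snai2, the second Snail factor, Foxc1, a forkhead gene related to Foxc2, and Tbx3 had one in all 7, and 8 factors had none in any library. Over all protein-coding genes, 36.8% had one in all 7 libraries and 43.3% in none. Snai2 had folds from 3.75 in ATAC4 to 14.1 in ATAC5, and Foxc1 from 5.47 in ATAC3 to 13.3 in ATAC5. Foxc1 was thus open in each library, where Foxc2 was open in 2. Alx1, Msx1, Dlx5, Dlx6 and Osr1, homeodomain and zinc finger factors of skeletal mesenchyme named here after their values were seen, had a start-site peak in ATAC2, ATAC5 and ATAC6 alone. Over all protein-coding genes, 413 (1.85%) had this pattern, these included.

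The partners of these proteins were open in every library. All 12 genes of that list, the E proteins Tcf3, Tcf4 and Tcf12, which pair with Twist factors, the inhibitors Id1 to Id4, which bind E proteins, and the co-repressors Ctbp1, Ctbp2, Hdac1, Hdac2 and Kdm1a of Snail and Zeb factors, had a start-site peak in all 7, as 36.8% of all protein-coding genes did. Tcf3 had the highest folds of the E proteins in each library, from 15.4 in ATAC3 to 41.4 in ATAC2, and Tcf12 the lowest, from 2.24 in ATAC3 to 7.12 in ATAC5. Id4 had its highest fold in ATAC5, 23.5, and its lowest in ATAC3, 4.36.

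Of 17 genes used as readouts of the epithelial-mesenchymal transition, 4 to 7 had a start-site peak in a library, beside 42.0% to 52.7% of all protein-coding genes. In all 7 libraries 4 of them had one and in none 9 did, beside 36.8% and 43.3% of all protein-coding genes. Vim and Fn1, which encode vimentin and fibronectin, Cdh2, which encodes N-cadherin, and the integrin gene Itga5 had one in all 7, with Vim from 9.19 in ATAC4 to 23.1 in ATAC5. The osteoblast cadherin gene Cdh11 had one in 6, all but ATAC7. The epithelial genes Cdh1, Esrp1, Esrp2, Cldn7, Grhl2 and Ovol1 had none in any library, Epcam had one in ATAC2 with a fold of 2.41, and Crb3 had one in ATAC5 and ATAC6. Postn, Tnc and Mmp2, matrix genes of mesenchyme, had none either, so the genes without a peak were not of one kind. Of 8 epithelial markers, 7 had none in any library, beside 43.3% of all protein-coding genes.

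The miR-200 microRNAs repress Zeb1 and Zeb2 and are themselves repressed by them. None of the 5 genes Mir200a, Mir200b, Mir429, Mir200c and Mir141 had a peak within 1000 bases of its annotated start in any library. The annotated start is that of the short precursor, which can lie far from the start of transcription.

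**Figure D5:**
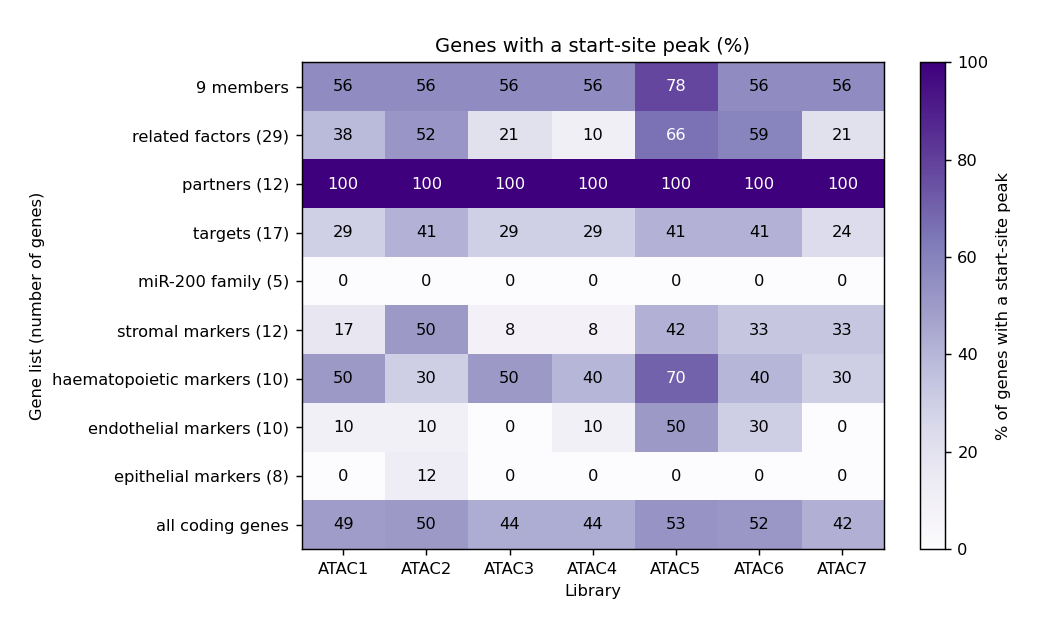
Share of genes with a start-site peak (number in each cell, in percent) for the 9 genes, the gene lists described in the text and all protein-coding genes, in each library. The partners are at 100 in every column, the miR-200 genes at 0, and the related factors range from 10 in ATAC4 to 66 in ATAC5.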

How the data were processed

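ATAC-seq peaks of 7 bone marrow stromal libraries and 1 Input library were used, with 1 library per title. Reads were aligned by the authors with Bowtie (build mm9), and their peaks come from CisGenome, run library by library with Input as control. The submitters' processing notes also name DiffBind and bedtools. The handling of duplicates and of the transposase offset is not given in the sources used here, and an offset would move edges by a few bases. The extract protocol in the labels describes RNA. The deposited tables have no header, so columns were read from their values. Each peak has, in the authors' tables, a raw read count of the library and a read count of Input in the wider region, without normalization, and no depth of the libraries. The authors' fold is a ratio of library reads, multiplied by a factor for each library, to Input reads plus 0.01. The deposited caller statistics are signal values and were used only through the rank. The coordinate lists equal the tables in all 164103 peaks and were not used.

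Positions came from GENCODE vM1 on NCBIM37 (mm9), and coordinates are printed as the files give them. Windows were the gene and 50 kb on each side. Overlapping peaks were merged into regions. Reads have exact Poisson and folds exact Clopper-Pearson intervals at 95%. Read counts are not given as sums over peaks, since 27 neighbouring peaks of the windows had overlapping wider regions. Such sums were used to break ties between regions called in equally many libraries. The 9 genes and all lists were chosen with earlier results of these data known. The text names all 9 genes. Their regions were taken from a set of up to 5 per gene, not all of which are named: the start-site region called in most libraries, the 3 others called in most, and the best-ranked one called in 1 library. Further regions and genes were named after their values were seen. Of the listed names, Foxf1 was not found, Foxf1a was listed and found as its own entry, and Spi1 was found under Sfpi1. One haematopoietic marker is counted in its list but not reported here by name. Python 3.11.15 with pandas 2.3.3, scipy 1.17.1, pysam 0.24.0 and matplotlib 3.10.9 was used, and the steps were tested on simulated data. Alternatives were the distance to the start site, the flank, a fold of at least 5, lists of 15188 peaks each, coding transcripts only and other rules of merging. A mean density without Snai1 and peaks away from start sites in equal lists were added after seeing the data.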

Additional observations from a re-analysis of the deposited data

How the results depend on the processing

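No paired analysis was possible because the groups hold a single library each. With a fold of at least 5, the genes with a start-site peak in ATAC4 went from 5 to 3, Twist2 and Foxc2 lost all their start-site peaks, and the regions called in all libraries went from 10 to 3. Lists of 15188 peaks also took all start-site peaks from Twist2 and Foxc2, and lowered the 73 regions to 38 and those called in 1 library from 32 to 15. Prrx1 gained 3 libraries when centres within 2500 bases counted, Prrx2 stayed at 0 and Twist1 at 6 under every alternative run. For Zeb2 the best fold became 23.1 in ATAC1 within 500 bases and 38.3 in ATAC7 with a fold of at least 5, because another of its start sites was then read. Peaks other than those at the own start site numbered 22, 25, 16, 16, 38, 30 and 15 in ATAC1 to ATAC7. With 20 kb on each side they were 7, 13, 4, 5, 19, 12 and 2. Without peaks at any start site they were 11 in ATAC1, 7 in ATAC3, 6 in ATAC4, 19 in ATAC6 and 7 in ATAC7. With a fold of at least 5 they were 9 in ATAC3 and 8 in ATAC4. With equal lists they were 14 in ATAC1, 7 in ATAC2, 14 in ATAC5 and 14 in ATAC6. The total depth of the libraries is unknown, so weak peaks of Twist2 and Foxc2 cannot be set against depth.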
